A study of Mus musculus with 34 samples.

Results

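The genes described here encode the secreted side of Wnt signalling: 19 Wnt ligands, 4 R-spondins and 12 secreted antagonists, chosen by symbol as a family list of 35 of the 51826 gene identifiers in the count tables. Polyadenylated RNA was sequenced from stromal cells sorted out of digested mouse tissues, in 34 libraries of 12 groups. Every sort kept podoplanin-positive cells that lacked CD45, CD31 and Epcam. Cells with PDGFRA at the surface were collected as fibroblasts from bone, spleen, lymph node, pancreas and 5 fat sites, namely omentum, mesentery, epididymal, inguinal and brown fat, and cells without it as mesothelial cells, the lining of the body cavities, from omentum, mesentery and epididymal fat. Groups held 3 libraries each, or 2 for pancreas and spleen fibroblasts. By the region label, inguinal and brown fat are subcutaneous and the other 3 fat sites visceral. All samples carry a GFP-negative tag, with no strain, genotype, sex or age given. Nothing in the labels ties libraries to animals, so each p reflects library-to-library spread, which may be technical.

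Wnt proteins are lipid-modified signals that bind Frizzled receptors. With the co-receptors LRP5 and LRP6 they stabilise beta-catenin, while other ligands act through ROR and related receptors without it. R-spondins bind LGR receptors and remove the ligases RNF43 and ZNRF3, which take Frizzled off the cell surface, and so raise the response to Wnt. SFRP proteins and WIF1 bind the ligands themselves, DKK proteins block LRP5 and LRP6, and NOTUM strips the lipid from Wnt. In mesenchyme the pathway is known for opposing fat cell formation and driving bone formation.

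Total counts ran from 28.7 to 42.3 M per library. Levels are CPM, or counts per 1 M counts, on totals scaled by the trimmed mean of M-values, and levels of different genes are compared only as CPM per kb of exon. Summed levels of marker lists are the exception, given throughout as CPM on unscaled totals. The labels were set against markers. Pdgfra, whose protein was itself a sort criterion, lay between 367 and 1424 CPM in fibroblast libraries and between 4.43 and 13.5 CPM in mesothelial ones. The 14 mesothelial markers together lay between 12321 and 18091 CPM in mesothelial libraries. The 10 fibroblast markers, led by Dcn there, still summed to 22957 to 29302 CPM in mesothelial libraries. Fibroblasts of omentum, mesentery and epididymal fat held 34141 to 48966 CPM of them, but lymph node fibroblasts, at 21535 to 29772 CPM, overlapped with mesothelial cells. The libraries at 29302 and 34141 CPM had scaling factors of 0.8728 and 1.101, so on scaled totals omentum fibroblasts overlapped as well. In bulk RNA, fewer cells of a type and less RNA per cell cannot be told apart. Omentum fibroblast libraries held 773 to 1147 CPM of the mesothelial markers, led by Upk3b, and bone libraries 14475 to 20435 CPM of bone and cartilage cell markers, led by Bglap, against at most 48.8 CPM in any other library. Acinar markers of the pancreas summed to at least 2000 CPM in 6 omentum and mesentery libraries, which are left out as an alternative.

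Of the 35 genes, 21 reached a group mean of 1 CPM, namely 9 ligands, 3 R-spondins and 9 antagonists. The 14 below that level included ligands usually tied to epithelia and the nervous system. Their highest group means were 0.34 CPM for Wnt1, 0.051 for Wnt3, 0.0465 for Wnt3a, 0.857 for Wnt6, 0.16 for Wnt7a, 0.818 for Wnt7b, 0.187 for Wnt8a, 0.055 for Wnt9b, 0.0188 for Wnt10a, 0.595 for Rspo4, 0.162 for Dkk4, 0.0968 for Sost and 0.861 for Notum. Wnt8b had no count in any library. Sost, the sclerostin gene of osteocytes, was thus not detected above trace level even in bone. The filter on low counts kept 27 genes for testing, and Wnt3, Wnt3a, Wnt7a, Wnt8a, Wnt8b, Wnt9b, Wnt10a and Sost fell below it.

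**Figure D1:**
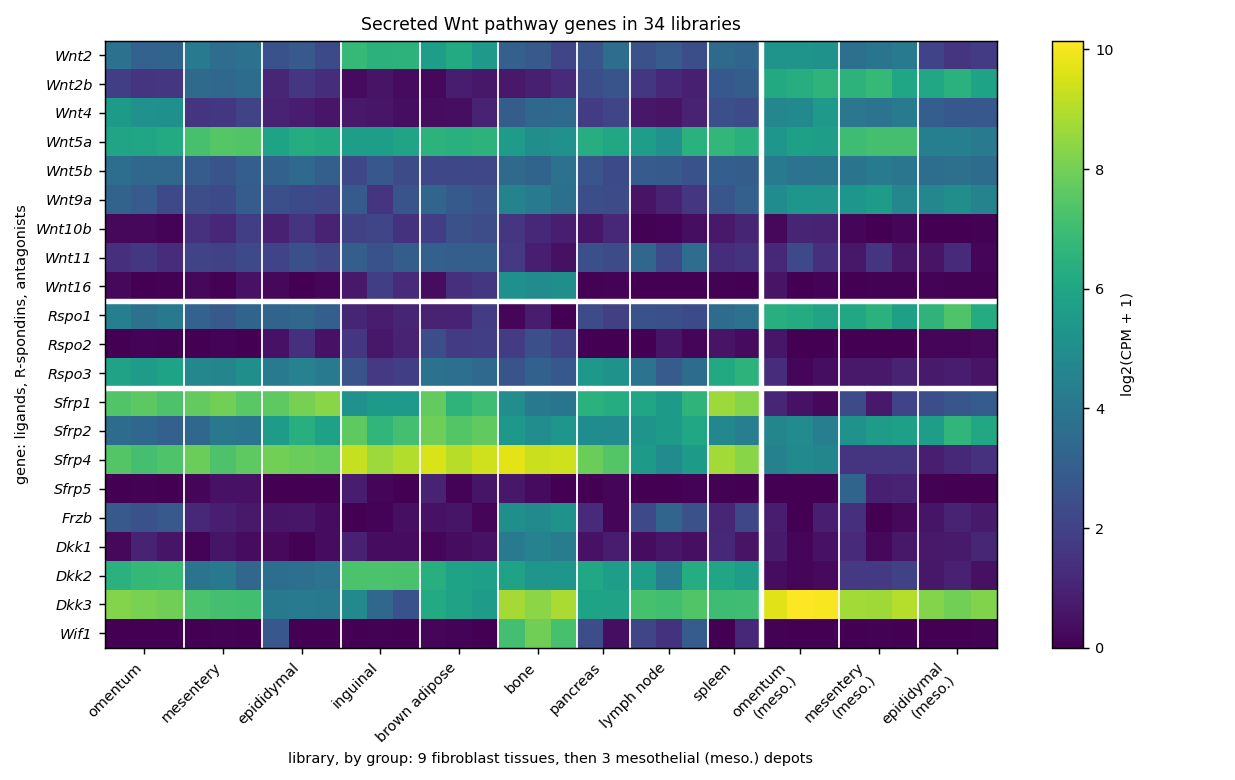
Level of the 21 genes with a group mean of at least 1 CPM (rows, ligands then R-spondins then antagonists) in each of the 34 libraries (columns, by group), as log2(CPM + 1) by colour. Rspo1 and Wnt2b are bright in the 9 mesothelial libraries at the right and Sfrp1, Dkk2 and Rspo3 are dark there, while Wnt16, Wif1, Dkk1 and Frzb are bright in bone.

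The reference promoters of 5 genes that carry the contrasts below are shown so that the regulatory sequence can be read beside the expression: Rspo1 and Wnt9a, both high in mesothelial cells, Dkk2, low there, and Wnt16 and Wif1, both highest in bone. Each window is the stretch upstream of the RefSeq transcript start on the plus strand of GRCm38.p6, at chr4:124986180-124986429, chr11:59306680-59306927, chr3:132085042-132085291, chr6:22287977-22288226 and chr10:121033754-121033959 in that order, cut where an annotated exon begins. Capitals mark a match to one of the 5 motifs searched on both strands.
Rspo1: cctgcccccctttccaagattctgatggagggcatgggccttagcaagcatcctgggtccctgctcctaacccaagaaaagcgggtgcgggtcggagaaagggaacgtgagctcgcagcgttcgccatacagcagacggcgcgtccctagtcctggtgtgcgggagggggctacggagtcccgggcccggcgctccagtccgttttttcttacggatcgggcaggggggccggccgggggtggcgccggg
Wnt9a: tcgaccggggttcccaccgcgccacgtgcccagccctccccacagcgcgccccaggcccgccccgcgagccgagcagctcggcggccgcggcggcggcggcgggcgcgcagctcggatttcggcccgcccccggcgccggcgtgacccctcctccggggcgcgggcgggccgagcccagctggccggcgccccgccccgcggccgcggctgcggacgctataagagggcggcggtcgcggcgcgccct
Dkk2: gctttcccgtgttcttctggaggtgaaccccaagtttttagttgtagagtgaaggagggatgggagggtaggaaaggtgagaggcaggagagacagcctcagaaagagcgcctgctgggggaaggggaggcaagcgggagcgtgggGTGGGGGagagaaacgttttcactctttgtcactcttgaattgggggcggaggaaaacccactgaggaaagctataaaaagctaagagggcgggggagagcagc
Wnt16: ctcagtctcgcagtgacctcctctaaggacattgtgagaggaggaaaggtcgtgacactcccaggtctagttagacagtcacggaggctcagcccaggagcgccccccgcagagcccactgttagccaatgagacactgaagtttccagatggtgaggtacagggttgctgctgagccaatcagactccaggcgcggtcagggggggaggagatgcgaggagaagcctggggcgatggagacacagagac
Wif1: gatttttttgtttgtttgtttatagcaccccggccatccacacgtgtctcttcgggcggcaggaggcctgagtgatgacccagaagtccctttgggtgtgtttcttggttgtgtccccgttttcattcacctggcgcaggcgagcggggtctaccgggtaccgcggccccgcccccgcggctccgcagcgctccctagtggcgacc
Only the Dkk2 window held a match, to the WT1 form GTGGGNG on the plus strand 104 bases upstream of the start. That form occurs in 28.1% of 32851 promoter windows of 250 bases. None of the 5 held the TCF/LEF letters CTTTGAT, found in 3.21% of those windows, or the RUNX letters TGTGGT, found in 14%. None held the GATA letters AGATAA (9.99%) or the TEAD letters GGAATG (12.6%) either. Over windows of 206 bases, the length printed for Wif1, the shares were 22.9% for the WT1 form and 2.72%, 12%, 8.65% and 10.9% for the others in that order. The windows differ in base composition, with 84.3% G and C for Wnt9a, 66.8% for Rspo1, 61.7% for Wif1, 59.2% for Wnt16 and 55.6% for Dkk2, against a median of 52.4% over all promoters. Of the 35 genes, 24 had an entry in that table.

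Mesothelial cells and fibroblasts of the same depots differed in the balance of their R-spondin genes. Mesothelial libraries held almost only Rspo1, best known for its part in ovary formation, and fibroblast libraries held more Rspo3, which maintains vessels and intestinal stem cells. Calls rest on edgeR's quasi-likelihood test, with a Benjamini-Hochberg adjusted p under 0.05 and a log2 difference of 1 or more in either direction. By that rule 15 of the 27 tested genes differed over the mean of the 3 depots, 9 higher and 6 lower in mesothelial cells, where 21.4% of all 25705 genes tested were called, 12.3% higher and 9.08% lower. Genes that entered the test through 1 high group had to differ somewhere, so this count is read only as a description. The median log2 fold change of the 27 was -0.26, against 0.11 over all genes.

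Markers of other cell types moved with this contrast. Leukocyte markers were at 768 to 920.4, 964 to 2066 and 122 to 281 CPM in mesothelial cells of omentum, mesentery and epididymal fat, against 457 to 640.2, 18.8 to 49.2 and 39.8 to 100.3 CPM in the fibroblasts. Cd74 was the highest gene of that sum in every mesothelial group and in omentum and epididymal fibroblasts, and Lyz2 in mesentery fibroblasts. Mural markers were also higher, at 349 to 362, 211 to 221 and 574 to 677 against 187 to 263, 64.8 to 134 and 106 to 167 CPM. Endothelial markers were lower in mesentery (99.3 to 122 against 271 to 432 CPM) and epididymal fat (75.2 to 135 against 376 to 504 CPM), with overlap in omentum. The highest gene of that sum was Tek in these fibroblasts and Kdr in the mesothelial cells. The part of all these markers in the differences that follow was not tested.

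Rspo1 (chr4:124986430-125009099) read 84.2, 74.4 and 60.3 CPM in omentum, 65.0, 89.3 and 53.9 in mesentery and 97.1, 161 and 73.9 in epididymal mesothelial cells. The matching fibroblasts read 19.9, 13 and 16, then 8.16, 6.21 and 8.62, and then 8.71, 9.77 and 7.08 CPM. No library overlapped between the cell types, and mesothelial cells were 8.06-fold higher over the 3 depots (log2 fold change 3.01 ± 0.19 SE, edgeR adjusted p = 7.57e-15). The lowest mesothelial library was replicate 3 of mesentery and the highest fibroblast library replicate 1 of omentum.

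Rspo3 (chr10:29452416-29535867) ran the other way. It read 57.0, 48.2 and 57.8 CPM in omentum fibroblasts, 25.2, 23.7 and 32.4 in mesentery and 17.4, 21.7 and 16.6 in epididymal ones. Mesothelial libraries read 1.41, 0.11 and 0.29, then 0.618, 0.601 and 0.969, and then 0.655, 0.728 and 0.433 CPM. All 9 mesothelial libraries lay below every fibroblast library of these depots, 48.5-fold lower on average (log2 fold change -5.60 ± 0.24, edgeR adjusted p = 1.99e-19). As a share of the summed R-spondin level per kb, Rspo1 made up 99.4% in omentum, 99.3% in mesentery and 99.6% in epididymal mesothelial cells. In fibroblasts of the same depots, in that order, it still made up 32.1%, 31.1% and 41.6%.

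In fibroblasts the largest share went to Rspo3 in all 9 tissues, from 51.2% in inguinal fat to 87.7% in pancreas. Lymph node replicate 2 was the single fibroblast library in which Rspo1 (51.1%) exceeded Rspo3 (46.5%). The summed level itself spread widely, from 2.05 CPM per kb in inguinal and 3.09 in bone fibroblasts to 26.0 in omentum and 32.9 in spleen, and reached 36.0 to 57.4 in the mesothelial groups. Rspo2, which acts in limb and lung growth, stayed at a group mean of at most 3.37 CPM. Its highest groups were bone (2.46, 4.64 and 3 CPM) and brown adipose fibroblasts (4.20, 2.43 and 2.65 CPM), which overlapped each other. It had no count in either pancreas library or in mesentery mesothelial cells, where 3 counts over the group would read 0.0412 and 0.0284 CPM.

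**Figure D2:**
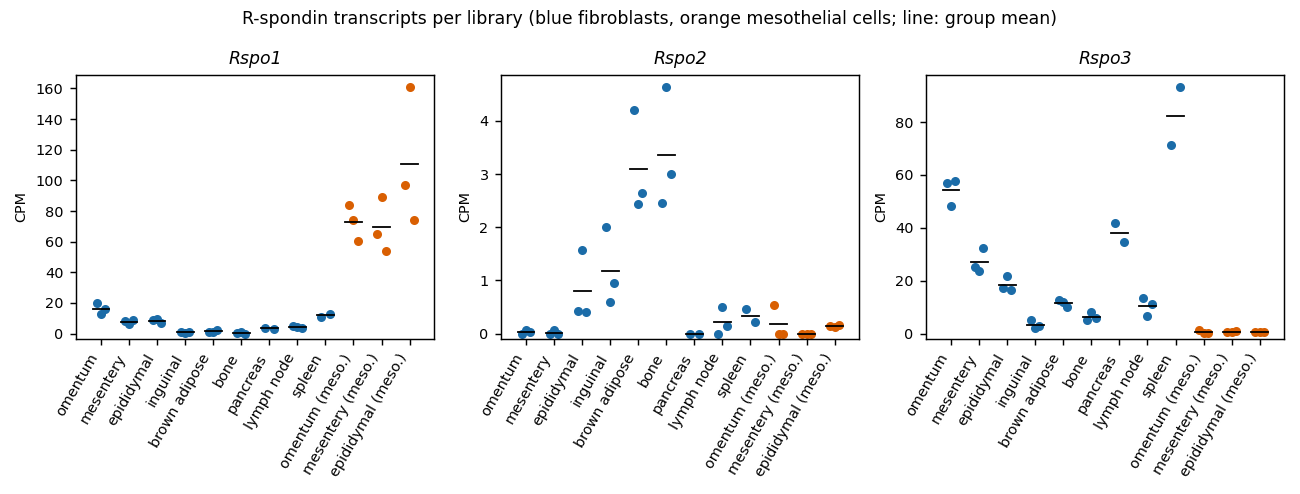
CPM of Rspo1, Rspo2 and Rspo3 (one panel each, linear axes from 0) in each library of the 12 groups, with a line at the group mean; blue points are fibroblasts and orange points mesothelial cells. The mesothelial libraries lie between 53.9 and 161 CPM for Rspo1 and between 0.11 and 1.41 CPM for Rspo3, and the highest Rspo3 points are the 2 spleen libraries.

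Among the ligands, Wnt2b and Wnt9a separated mesothelial cells from fibroblasts in all 3 depots. Wnt2b (chr3:104945272-104961921, minus strand), a ligand of the beta-catenin branch with roles in eye and gut development, read 70.5, 78.0 and 97.0 CPM in omentum, 92.4, 110.3 and 62.8 in mesentery and 65.0, 87.6 and 57.5 in epididymal mesothelial cells. Fibroblasts read 2.66, 1.89 and 2.02, then 10.5, 9.83 and 11.1, and then 1.13, 2.08 and 1.54 CPM. The groups did not overlap, and the difference was 23.9-fold (log2 fold change 4.58 ± 0.17, edgeR adjusted p = 9.82e-21).

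Wnt9a, which acts in joint formation and blood stem cell development, read 29.8, 39.3 and 38.3 CPM in omentum, 39.6, 48.2 and 25.2 in mesentery and 25.1, 31.4 and 22.2 in epididymal mesothelial cells. The fibroblast libraries of these depots lay between 3.43 and 8.46 CPM, below all of these (log2 fold change 2.72 ± 0.21, edgeR adjusted p = 1.06e-12). Per kb of exon, Wnt2b led the ligands in all 3 mesothelial groups with 28.9%, 31.2% and 47.6% of their sum in omentum, mesentery and epididymal fat. Second place differed, going to Wnt2 in omentum (24.4%), Wnt5a in mesentery (26.4%) and Wnt9a in epididymal fat (22.6%). The summed ligand level was 67.1, 66.8 and 34.8 CPM per kb in the mesothelial groups, and 28.5, 35.1 and 17.3 in fibroblasts of the same depots.

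Wnt7b (edgeR adjusted p = 5.87e-06) and Wnt6 (log2 fold change 2.68 ± 0.42, adjusted p = 1.00e-06) were also called higher in mesothelial cells over the 3 depots. Their means were 0.581 and 0.834 CPM against 0.00268 and 0.157 CPM, and libraries of the cell types overlapped for both. With almost no count of Wnt7b in these fibroblasts, its fitted fold change depends on the prior count and is not given. Its highest group mean was in epididymal mesothelial cells, so its call is read only as a description. Against epididymal fibroblasts, which had no count of Wnt7b, the epididymal mesothelial mean of 0.818 CPM was at least 25.7-fold higher, taking 3 counts over the fibroblast group as the floor, which covers counting error only. Wnt10b, a ligand that holds back fat cell formation, and Wnt11, which acts mainly without beta-catenin in cell movement, were called lower (log2 fold changes -2.59 ± 0.59 and -1.34 ± 0.30, adjusted p = 0.000496 and 0.000539). Both stood at or under 3.69 CPM in all 6 groups compared. The Wnt10b mean joins opposite directions, higher in omentum and lower in mesentery mesothelial cells than in their fibroblasts, as given with the flagged results.

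The antagonists changed composition. Sfrp1 (chr8:23411502-23449632) read 166, 192 and 159 CPM in omentum, 210.4, 251 and 184 in mesentery and 196, 269.5 and 328 in epididymal fibroblasts. Mesothelial libraries read 1.13, 0.413 and 0.158, then 4.06, 0.601 and 3.16, and then 4.44, 5.48 and 6.84 CPM. The gap between the cell types was far wider than the spread within them (log2 fold change -6.75 ± 0.29, edgeR adjusted p = 1.71e-17).

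Sfrp4, an SFRP gene known from bone and phosphate biology, read 171, 142 and 164 CPM in omentum fibroblasts against 20.7, 26.9 and 23.9 in omentum mesothelial cells. In mesentery and epididymal fat the fibroblasts read 157 to 256 CPM and the mesothelial cells 0.797 to 1.99 CPM. Omentum mesothelial cells thus kept a level of Sfrp4 that the other mesothelial groups lacked, and the mean difference was -5.65 ± 0.15 on the log2 scale (edgeR adjusted p = 1.27e-24). Dkk2, a DKK gene that can block or activate LRP6 signalling by context, showed the widest gap in omentum, with 88.6, 108 and 117 CPM in fibroblasts against 0.247, 0.11 and 0.211 in mesothelial cells. In mesentery it read 13.9, 16.2 and 9.07 against 2.19, 2.28 and 3.03 CPM, and in epididymal fat 11.6, 11.9 and 13.5 against 0.569, 0.918 and 0.365. The cell types did not overlap in any depot (log2 fold change -5.29 ± 0.23, edgeR adjusted p = 7.25e-19).

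Dkk3, a divergent DKK gene that does not act on LRP6 as the others do, was higher in mesothelial cells. It read 824, 1132 and 1046 CPM in omentum, 430.1, 413 and 519 in mesentery and 307, 254 and 297 in epididymal mesothelial cells. The fibroblasts read 303, 274 and 244, then 153, 143 and 133, and then 16.4, 17.3 and 16.2 CPM. Within each depot the libraries did not overlap, although omentum fibroblasts reached the level of epididymal mesothelial cells (log2 fold change 2.55 ± 0.18, edgeR adjusted p = 1.31e-13). Dkk3 made up 94.4%, 84.5% and 70.2% of the summed antagonist level per kb in omentum, mesentery and epididymal mesothelial cells. Sfrp2 supplied most of the remainder, with 3.62%, 12.9% and 27.8%, and was called higher over the 3 depots (1.12 ± 0.16, adjusted p = 3.26e-07), with overlapping libraries. Dkk1 passed narrowly at 1.08 ± 0.43 (adjusted p = 0.0483) from means of 0.626 and 0.329 CPM, and lost the call in 26 alternatives, for example without epididymal mesothelial replicate 1 (adjusted p = 0.0727).

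**Figure D3:**
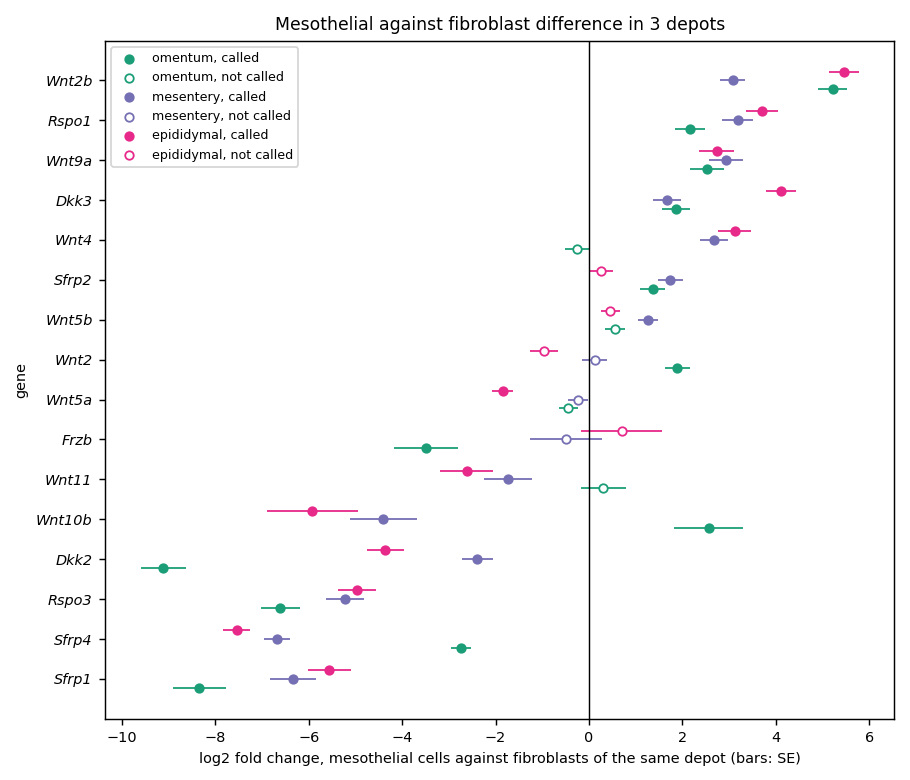
Log2 fold change of mesothelial cells against fibroblasts of the same depot (x axis, bars 1 SE) for 16 genes with at least 1 CPM in one of these groups (y axis), in omentum, mesentery and epididymal fat. Filled points were called and open points were not; Wnt2b, Rspo1, Wnt9a and Dkk3 are filled to the right of 0 and Sfrp1, Sfrp4, Rspo3 and Dkk2 to the left in all 3 depots.

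The size of the mesothelial difference varied by depot. A test of that variation called 14 of the 27 genes, with 10.9% of all genes called. In single depots 13 genes were called in omentum (16.9% of all genes), 16 in mesentery (18.3%) and 18 in epididymal fat (24.7%). Wnt4, a ligand of kidney and gonad development, was higher in mesothelial cells of mesentery (15.3, 13.7 and 17.6 against 1.98, 2.11 and 3.28 CPM) and of epididymal fat (7.11, 5.86 and 5.97 against 0.956, 0.713 and 0.525 CPM). In omentum the mesothelial libraries read 24.7, 27.0 and 42.6 CPM and the fibroblasts 45.2, 33.9 and 33.1, which overlapped and did not pass the test. The edgeR adjusted p for the difference between depots was 4.92e-07.

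Wnt2 behaved differently again. It read 37.5, 37.1 and 35.4 CPM in omentum mesothelial cells against 12.8, 8.08 and 8.64 in omentum fibroblasts, a called difference (log2 fold change 1.89 ± 0.27, edgeR adjusted p = 1.36e-06). In mesentery 12.5, 14.4 and 17.6 CPM overlapped with 16.9, 11.2 and 12.7, and in epididymal fat 3.07, 1.96 and 2.51 stood against 4.88, 6.09 and 3.86 CPM without passing the rule. Wnt5a, the main ligand of the branch without beta-catenin, was lower in epididymal mesothelial cells alone, at 20.1, 19.9 and 16.8 against 58.4, 76.7 and 69.9 CPM (log2 fold change -1.85 ± 0.22, edgeR adjusted p = 3.58e-08). It stayed at 126, 141 and 143 CPM in mesentery mesothelial cells, near the 144, 174 and 165 CPM of their fibroblasts. The difference between depots was itself called (adjusted p = 0.000485).

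Across the 3 mesothelial groups 13 genes were called, where 12.3% of all genes were. Wnt2 fell in steps from omentum (36.6 ± 1.12 CPM, SD, n = 3) to mesentery (14.9 ± 2.58) and epididymal fat (2.51 ± 0.556), and Wnt4 from 31.5 ± 9.72 to 15.5 ± 2 and 6.31 ± 0.696 CPM. Dkk3 took the same order, at 1000.4 ± 159, 454 ± 57.2 and 286 ± 28.3 CPM. Sfrp1 and Sfrp2 took the reverse order, from 0.566 ± 0.503 and 24.3 ± 4.87 CPM in omentum to 5.58 ± 1.20 and 73.3 ± 26.2 CPM in epididymal fat. The edgeR adjusted p for these 5 genes ran from 1.58e-10 for Wnt2 and 1.01e-06 for Wnt4 to 0.000107 for Dkk3, 0.00018 for Sfrp1 and 0.000247 for Sfrp2. Sfrp5 rested on 1 library, with 8.53 CPM in mesentery mesothelial replicate 1 against 0.854 and 0.938 in the others, and its call against mesentery fibroblasts was lost without that library (adjusted p = 0.214). That library also held the most acinar markers outside the pancreas, 10099 CPM, whose part in the value was not tested.

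Fibroblasts of 9 tissues differed in 25 of the 27 genes tested, at a background of 44.0% of all genes called. The exceptions were Sfrp5 and Dkk4. Per kb, Wnt5a led the ligands in mesentery (58.6%), epididymal fat (50.6%), pancreas (48.0%), lymph node (47.1%) and spleen (49.0%). Wnt2 led in inguinal (77.1%) and brown fat (56.3%), Wnt4 in omentum (31.2%, with Wnt5a at 29.4%) and Wnt16 in bone (26.9%). The summed ligand level ran from 15.1 CPM per kb in lymph node to 56.4 in inguinal fibroblasts.

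**Figure D4:**
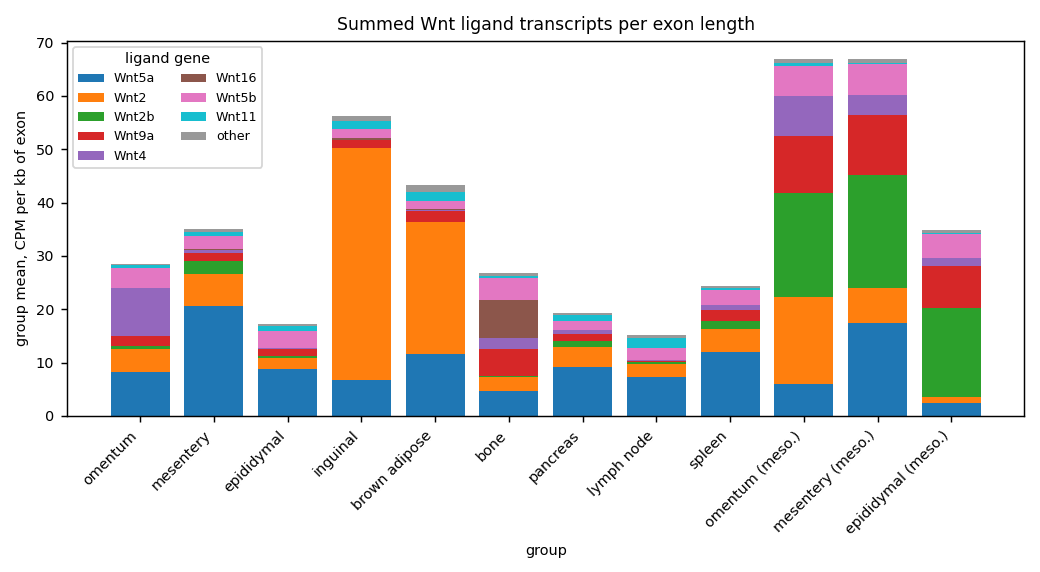
Group means of Wnt ligand transcripts in CPM per kb of exon (y axis), stacked by gene, for the 12 groups (x axis; meso. marks mesothelial cells). Wnt2 fills most of the inguinal and brown adipose bars, Wnt16 appears in bone alone at this scale, and Wnt2b is the largest segment of each of the 3 mesothelial bars.

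Visceral and subcutaneous fat fibroblasts differed in levels of ligands, R-spondins and antagonists. Rspo3 led the R-spondins per kb in both. Their sum was 2.05 and 5.14 CPM per kb in inguinal and brown fat, against 10.6 to 26.0 in the visceral depots. The comparison of 9 visceral with 6 subcutaneous libraries called 17 of 27 genes, 8 higher and 9 lower in visceral fat, where 8.23% of all genes were called, 4.29% higher and 3.94% lower. Wnt2 (chr6:17988940-18030585, minus strand), known from lung and placenta, read 109.6, 91.0 and 93.9 CPM in inguinal and 50, 73 and 44.4 in brown fibroblasts. The visceral libraries lay between 3.86 and 16.9 CPM, a difference of 8.46-fold without overlap (log2 fold change -3.08 ± 0.17, edgeR adjusted p = 2.12e-15).

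Sfrp2, an SFRP gene of connective tissue, read 196, 102 and 138 CPM in inguinal and 240.4, 171 and 204 in brown fibroblasts. Omentum read 10.9, 9.87 and 7.55, mesentery 9.39, 15.8 and 14.5 and epididymal fat 48.0, 80.4 and 55.2 CPM. Epididymal fat was the visceral depot closest to the subcutaneous ones, and the groups did not overlap (log2 fold change -3.13 ± 0.17, edgeR adjusted p = 2.16e-15). Sfrp4 was lower in visceral fat as well (-1.57 ± 0.13, adjusted p = 4.14e-11), at a mean of 196 against 579 CPM.

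Rspo1 and Rspo3 were higher in visceral fat and Rspo2 was lower. Rspo1 read 1.06, 0.715 and 1.08 CPM in inguinal and 1.03, 0.99 and 2.45 in brown fibroblasts, below all visceral libraries (log2 fold change 3.09 ± 0.26, edgeR adjusted p = 5.18e-11). Rspo3 read 5.03, 2.24 and 2.71 CPM in inguinal and 12.6, 11.9 and 10.2 in brown fibroblasts against 16.6 to 57.8 in visceral ones (2.28 ± 0.22, adjusted p = 9.01e-10). Rspo2 went the opposite way (-4.43 ± 0.57, adjusted p = 1.85e-07), at 2.01, 0.591 and 0.955 CPM in inguinal fat and the brown fat levels given above. It read at most 0.0746 CPM in omentum and 0.0594 in mesentery, while epididymal fat, at 0.425, 1.57 and 0.402 CPM, overlapped with inguinal fat. Rspo4 did not pass (0.00619 against 0.317 CPM, adjusted p = 0.0928). Wnt2b was also higher in visceral fat (3.09 ± 0.26, adjusted p = 5.90e-11), from 1.13 to 11.1 CPM against 0.172 to 0.764 CPM. Mesothelial markers moved with Rspo1, Rspo3 and Wnt2b, at 139 to 1147 CPM in visceral and 40.2 to 145 CPM in subcutaneous fibroblast libraries, and their part in the differences was not tested.

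Omentum fibroblasts stood out for Wnt4, at 45.2, 33.9 and 33.1 CPM against 0.259 to 10.1 CPM in all other fibroblast libraries. Against the mean of the other 8 tissues on the log2 scale the difference was 4.59 ± 0.17 (edgeR adjusted p = 2.34e-20). Mesothelial markers were at 773 to 1147 CPM in these libraries. Their part in the levels of Wnt4 and of Rspo1, both also found in omentum mesothelial cells, was not tested. In total, 10 genes were called there, at a background of 10%, among them Rspo1 (2.50 ± 0.21) and Rspo3 (1.77 ± 0.20) higher and Sfrp2 (-2.34 ± 0.24) lower, with edgeR adjusted p of 6.39e-11, 1.61e-08 and 4.17e-09. Wnt11 lay at the threshold there (-1.09 ± 0.39, adjusted p = 0.0478) and lost its call in 28 alternatives, such as without bone replicate 1 (adjusted p = 0.0665). The alternative without libraries of at least 2000 acinar CPM removed 2 omentum and 1 mesentery fibroblast libraries, along with mesothelial ones. It left omentum fibroblasts with 1 library, so no count of called genes is given for it.

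Mesentery fibroblasts held the most Wnt5a of all groups, at 144, 174 and 165 CPM against 30.9 to 103 CPM in the other fibroblast libraries (1.31 ± 0.14, edgeR adjusted p = 7.08e-08). Their Wnt2b, at 10.5, 9.83 and 11.1 CPM, was likewise above every other fibroblast library (2.83 ± 0.18, adjusted p = 5.45e-13). The comparison called 7 genes at a background of 3.5%. Epididymal fibroblasts also had 7 called, at 4.43%, led by low Dkk3 (16.4, 17.3 and 16.2 CPM, -2.65 ± 0.28, adjusted p = 2.26e-08) and low Dkk2 (-2.18 ± 0.26, adjusted p = 3.30e-07). Dkk1 there rested on the threshold (adjusted p = 0.0495) and lost its call in 24 alternatives, for example without bone replicate 2 (adjusted p = 0.0572).

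Inguinal fibroblasts had 17 genes called at a background of 6.3%, and brown adipose fibroblasts 12 at 6.41%. Dkk2 read 155, 155 and 149.5 CPM in inguinal fat, above the 117 CPM of the highest other fibroblast library (1.90 ± 0.19, edgeR adjusted p = 2.85e-09). Dkk3 had its lowest group mean there, with 26.7, 9.49 and 4.96 CPM, where replicate 1 lay above the 16.2 to 17.3 CPM of epididymal fat and the other 2 below it. Wnt10b had its highest level in the 2 subcutaneous groups, 2.99, 3.33 and 1.79 CPM in inguinal and 2.73, 4.67 and 4.26 in brown fibroblasts, which overlapped with mesentery at 1.76, 1.22 and 2.64 CPM. Its visceral against subcutaneous difference was -2.23 ± 0.31 (adjusted p = 7.52e-07).

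Among the antagonists, Wif1, Dkk1 and Frzb read higher in every bone library than in any other library. Wif1, which captures Wnt ligands in the matrix, read 139, 245 and 147 CPM in bone, and the next highest groups were lymph node (3.38, 1.78 and 6.76 CPM) and pancreas (4.31 and 0.312 CPM). No other library came near bone, and the edgeR adjusted p against the other 8 tissues was 2.48e-12. Omentum fibroblasts had no count of Wif1, so the fitted fold change depends on the prior count and is not given. In epididymal fibroblasts Wif1 rested on replicate 1 at 5.73 CPM, with no count in the other 2 libraries.

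Dkk1, an inhibitor of bone formation made by the osteoblast lineage, read 16.7, 21.8 and 18.4 CPM in bone and at most 1.22 CPM in any other fibroblast library (log2 fold change 5.58 ± 0.27, edgeR adjusted p = 2.40e-18). Frzb, an SFRP of cartilage, read 32.5, 28.0 and 35.6 CPM, above lymph node at 3.75, 8.86 and 4.69 and omentum at 6.18, 4.90 and 6.21 CPM (4.99 ± 0.33, adjusted p = 4.22e-14). Wnt16, a ligand that guards cortical bone, read 33.0, 28.9 and 31.9 CPM, while inguinal (0.632, 2.71 and 1.33) and brown fibroblasts (0.259, 1.64 and 2.17) came next. Lymph node fibroblasts had no count of Wnt16, 3 counts over that group being 0.0312 CPM, and the adjusted p for bone was 2.81e-25.

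Other changes in bone concerned genes found in many tissues. Dkk3 was higher (433, 336 and 457 CPM, 2.55 ± 0.18, edgeR adjusted p = 3.25e-13), as was Wnt9a (22, 16.5 and 12.4 CPM, 1.98 ± 0.23, adjusted p = 2.26e-08), and neither overlapped with another fibroblast group. Sfrp1 was lower, at 30.5, 16.3 and 14.2 CPM (-2.73 ± 0.36, adjusted p = 4.45e-07), and Rspo1 stood at 0.107, 0.743 and 0 CPM (-4.05 ± 0.45, adjusted p = 7.67e-09). Sfrp4 had its highest mean in bone, 846, 637 and 680 CPM, but overlapped with brown fat at 762, 531 and 675. A total of 19 of 27 genes was called in bone, 12 higher and 7 lower, at a background of 19.5% (12.8% higher and 6.65% lower), with a median log2 fold change of 1.48 against 0.03 over all genes.

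The bone libraries also held bone and cartilage cell markers at 14475, 18867 and 20435 CPM and skeletal muscle markers at 4756, 4840 and 336 CPM. Col1a1 reached 34219 to 82208 CPM in them. Their part in the bone values was not tested.

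**Figure D5:**
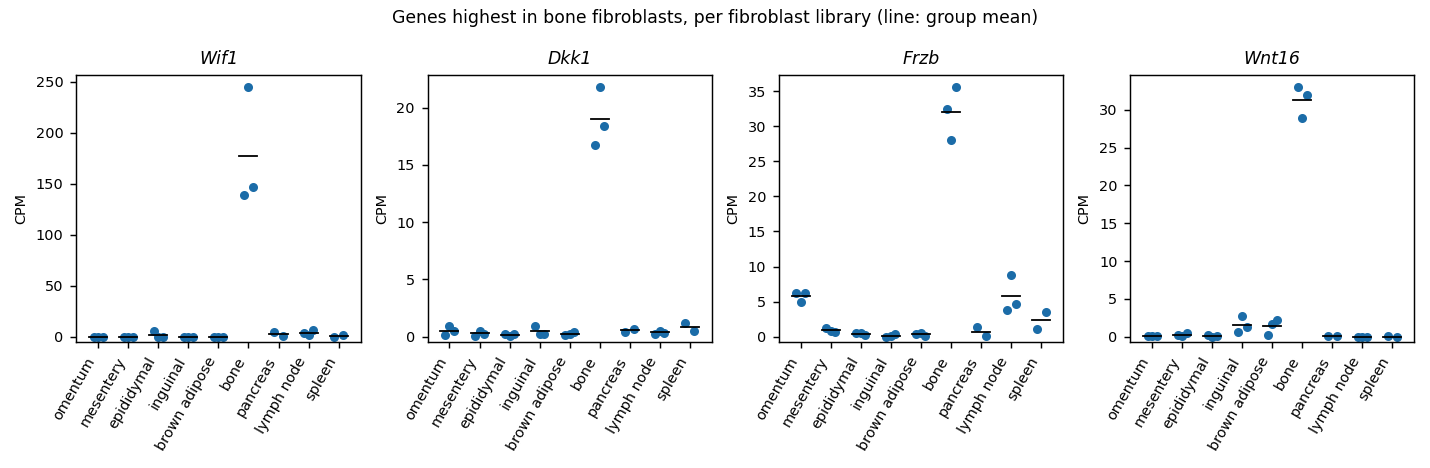
CPM of Wif1, Dkk1, Frzb and Wnt16 (one panel each, linear axes from 0) in each fibroblast library of 9 tissues, with a line at the group mean. In all 4 panels the 3 bone libraries lie above every other fibroblast library, from 139 to 245 CPM for Wif1 and from 16.7 to 21.8 CPM for Dkk1.

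In the lymphoid organs the antagonists parted. Lymph node fibroblasts had the lowest Sfrp4 of any fibroblast group, at 45.7, 28.9 and 45.7 CPM, against 142 CPM or more in every other fibroblast library (-3.03 ± 0.20, edgeR adjusted p = 3.54e-14). Wnt9a was low there too, at 0.461, 0.96 and 2.03 CPM (-2.43 ± 0.37, adjusted p = 3.03e-06), overlapping with 1 inguinal library at 1.90 CPM. Wnt6 was at its highest among fibroblasts (mean 0.618 against 0.104 CPM, 3.17 ± 0.57, adjusted p = 1.89e-05). The lymph node libraries spread widely for Wnt5a (50.2, 34.2 and 89.3 CPM) and Dkk2 (50.9, 19.2 and 77.5 CPM). They also held mural cell markers at 975 to 1358 CPM, led by Rgs5, above the 14.2 to 263 CPM of other fibroblast libraries. Schwann cell markers, led by Ngfr, were at 146 to 211 CPM, against at most 45.2 CPM in any other fibroblast library. Leukocyte markers, led by Cd74, were at 429 to 930.4 CPM. The part of these markers in the lymph node values was not tested. The lymph node comparison called 10 genes at a background of 16.4%.

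Spleen fibroblasts had 5 genes called, all higher, at a background of 3.88% (3.47% higher and 0.416% lower). Rspo3 read 71.3 and 93.3 CPM, the highest of any group, above omentum at 48.2 to 57.8 CPM (2.45 ± 0.22, edgeR adjusted p = 6.59e-10). Sfrp1 read 403 and 313 CPM and overlapped with epididymal replicate 3 at 328 (1.92 ± 0.28, adjusted p = 2.80e-05). Rspo1, at 11.1 and 12.9 CPM, and Wnt2b, at 5.88 and 6.85 CPM, were called as well (1.99 ± 0.26 and 2.03 ± 0.23, adjusted p = 1.94e-06 and 1.36e-07). The fifth, Wnt4, was called at 1.12 ± 0.26 although its mean of 4.41 CPM lay below the arithmetic mean of the other tissues, 6.93 CPM, which omentum raised, and it lost the call without replicate 1 (adjusted p = 0.185) and without replicate 2 (0.0904).

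Pancreas fibroblasts had the fewest genes called, 3 at a background of 11%, or 5 without pancreas replicate 2 or without spleen replicate 2. Rspo3 (41.7 and 34.6 CPM, 1.20 ± 0.24, edgeR adjusted p = 0.000591) and Wnt2b (4.36 and 5.21 CPM, 1.56 ± 0.24, adjusted p = 1.35e-05) were higher. Rspo2, without a count, was called lower at adjusted p = 0.0443, which was lost without replicate 1 (0.302) or replicate 2 (0.192) of pancreas. Acinar markers took 53937 and 185712 CPM of these libraries, and their part was not tested.

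The receiving side of the pathway was followed through lists of genes for each step. In mesothelial cells 6 of 16 receptor genes were called over the 3 depots, 5 higher and 1 lower, beside 21.4% of all genes (12.3% higher and 9.08% lower). Fzd4, the receptor of vessel growth, was lower (27.5 against 112 CPM, -1.99 ± 0.11, edgeR adjusted p = 1.15e-16). Fzd6 (8.51 against 0.781 CPM, 3.43 ± 0.24) and Fzd3 (9.69 against 2.34, 2.14 ± 0.21) were higher. Fzd1 was called higher on the mean (1.28 ± 0.12) with a difference that varied by depot (adjusted p = 1.55e-06), at 53.2 against 14.2 CPM in mesentery and 61.3 against 14.6 in epididymal fat but 41.5 against 45.1 in omentum. Of 5 R-spondin receptors and turnover genes, 2 were called and both higher. Lgr5, an R-spondin receptor, reached 23.0 ± 7.57 CPM (SD, n = 3) in omentum, 12 ± 1.15 in mesentery and 3.19 ± 1.99 in epididymal mesothelial cells, against 1.58, 0.219 and 0.331 CPM in their fibroblasts (4.33 ± 0.29, adjusted p = 3.03e-14). The other was Rnf43, at 0.869 against 0.0139 CPM. Fibroblasts of mesentery and epididymal fat had no count of Rnf43.

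Of 12 tested genes for Wnt secretion and surface handling, 6 were called in the same comparison, 2 higher and 4 lower. Wls, the carrier that brings Wnt to the cell surface, was at 884 against 353 CPM (1.33 ± 0.08, edgeR adjusted p = 3.22e-15), whereas Porcn, the enzyme that attaches the lipid, was at 3 against 9.43 CPM (-1.63 ± 0.16, adjusted p = 4.06e-10). Gpc6 (-2.64 ± 0.11) and Cthrc1 (-4.33 ± 0.40) were lower on the mean. The Gpc6 difference varied by depot (edgeR adjusted p = 1.86e-10), at 15.6 against 154 CPM in mesentery and 6.95 against 114 in epididymal fat. In omentum it did not pass the rule. Of 15 genes of the beta-catenin machinery, 2 were called, a smaller share than the 21.4% of all genes, Tcf7 higher (3.96 ± 0.38) and Tcf7l1 lower (-1.03 ± 0.12). Of 17 feedback and target genes, 8 were called, 6 higher and 2 lower, with a median log2 fold change of 0.60 against 0.11 over all genes. They include Lgr5, Rnf43 and Tcf7 above, Nkd1, a feedback inhibitor (2.43 ± 0.17, adjusted p = 8.31e-14), and Cd44 (-1.20 ± 0.14).

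In visceral against subcutaneous fibroblasts 3 of the same 17 feedback and target genes were called, beside 8.23% of all genes. Axin2, the feedback gene most often read as a sign of beta-catenin signalling, was at 4.58 against 0.605 CPM (2.93 ± 0.22, edgeR adjusted p = 3.09e-12), and Nkd1 was higher as well (1.47 ± 0.23, adjusted p = 1.34e-05). Axin2 reached 3.57 CPM or more in every visceral library and at most 0.801 CPM in every subcutaneous one. Twist1 was lower (-2.11 ± 0.23, adjusted p = 1.10e-08). Of the 16 receptors 3 were called, Ptk7 (14.3 against 0.837 CPM, 3.98 ± 0.27) and Ror1 (20.7 against 8.05, 1.26 ± 0.15) higher and Fzd10 lower.

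In bone 11 of the 17 feedback and target genes were called, 10 higher and 1 lower, beside 19.5% of all genes (12.8% higher and 6.65% lower). Ccn4 was at 528 against 6.90 CPM (6.37 ± 0.18, edgeR adjusted p = 8.05e-24), Tcf7 at 16.8 against 0.473 CPM (6.12 ± 0.27), and Nkd2 at 80.2 against 13.2 CPM (2.69 ± 0.12). Notum, the Wnt lipase and itself one of the 12 antagonists, read 0.819, 0.817 and 0.948 CPM in bone and at most 0.22 CPM in any other library. It passed the filter on low counts through bone, so its call there is only a description. Of the 16 receptors 9 were called, with Fzd5 (2.10 ± 0.21) higher and Fzd4 (-2.02 ± 0.16) and Ror1 (-2.05 ± 0.21) lower. All 4 called R-spondin receptor and turnover genes of 5 were higher, among them Lgr4 at 49.8 against 19.9 CPM and Lgr6 at 4.06 against 1.03 CPM. Lrp4, a receptor for sclerostin, was at 127 against 11.7 CPM (3.49 ± 0.18), while Cthrc1 reached 1094 against 21.3 CPM (6.62 ± 0.27, adjusted p = 8.73e-17). The bone and cartilage cell markers given above moved with these genes too.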

How the data were processed

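RNA-seq counts were taken as deposited. Per the file headers, a value is the number of reads of one library that matched a single gene model, a whole-number count. Salmon and GRCm38 are named in the submitters' processing notes, and the step from one to the other, the annotation release, strand use and pooling are not given in the sources used here. Symbols were matched for 51633 of 51826 identifiers. Positions and exon lengths come from GENCODE M21, and promoters from RefSeq.

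Counts of 34 libraries entered 1 fit in edgeR 4.0.16 (R 4.3.3; TMM, filterByExpr with a minimum count of 10, robust glmQLFit, glmQLFTest; legacy mode off) with a coefficient per group, over 25705 genes and 17 comparisons. P-values were adjusted over all genes tested. Where more than 2 groups were tested together, the spread between the highest and lowest group effect stands as the fold change. Replicate pairs differed by a chi-square per degree of freedom of 24.8 to 359, so none counted as a copy. On simulated counts over 24349 genes the mean mesothelial comparison found 1 of 50 genes changed 1.5-fold, 21 of 50 changed 2-fold, and every gene changed 4-fold or 8-fold. It also called 11 unchanged genes. The bone comparison, over 24305 genes, found 2, 22, 48 and 50 of them in the same order and called 23 unchanged genes. Recovery at 1.5-fold and 2-fold is limited by the log2 threshold of 1 itself. The changed genes were drawn only from genes above a minimum mean count, so recovery at low counts was not measured.

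The members, the lists and the comparisons were chosen with earlier results of these data known. Values per library are given for up to 20 members of at least 1 CPM, those called most often, and from each pathway list up to 4 genes with the smallest adjusted p. Alternatives were DESeq2 1.42.0, its size factors, no filter, only the groups compared, the replicate number as a block, each library left out, and the acinar-rich libraries left out. Exons of Wnt5a, Wnt7b, Wnt11, Rspo3, Sfrp2 and Notum overlap genes on the opposite strand, none above 2.63 CPM in any library.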

Additional observations from a re-analysis of the deposited data

Results flagged for a closer look

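The mesothelial against fibroblast difference varied between omentum, mesentery and epididymal fat for 14 genes by edgeR's test of that variation over all genes. The adjusted p was 1.31e-11 for Sfrp4, 4.01e-09 for Dkk2, 4.92e-07 for Wnt4, 1.55e-06 for Wnt10b, 1.27e-05 for Wnt2, 3.62e-05 for Wnt2b, 0.000125 for Dkk3, 0.000485 for Wnt5a and 0.00105 for Wnt1. It was 0.017 for Sfrp1, 0.017 for Sfrp2, 0.0181 for Wnt11, 0.0199 for Frzb and 0.0435 for Rspo1. Wnt10b changed direction, at 0.759 against 0.128 CPM in omentum (log2 fold change 2.56 ± 0.73) and 0.0813 against 1.87 CPM in mesentery (-4.40 ± 0.71) for mesothelial cells against fibroblasts. Its omentum call was lost without omentum mesothelial replicate 2 (adjusted p = 0.0538). Frzb was lower in mesothelial cells of omentum alone (-3.49 ± 0.68), at 0.519 against 5.76 CPM. Without omentum mesothelial replicate 2 the variation was no longer called for Wnt11 (adjusted p = 0.135), Frzb (0.0645) or Sfrp1 (0.0705). It was not called for Sfrp1 without omentum mesothelial replicate 3 (0.0682), for Sfrp2 without epididymal fibroblast replicate 2 (0.085), or for Rspo1 without epididymal mesothelial replicate 2 (0.0813) and in 13 other alternatives.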

How the results depend on the processing

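Of 221 calls of single genes in the 17 comparisons, 185 kept their direction and their call in every alternative that tested them and 36 lost the call in at least 1. Calls of Wnt1, Wnt11, Rspo2 and Dkk1 were among those lost. Wif1 in epididymal mesothelial cells against epididymal fibroblasts changed direction without epididymal fibroblast replicate 1, to a log2 fold change of 2.57 (adjusted p = 0.761), the only fibroblast library of that depot with a count of it. Over all single libraries left out it ran from -8.94 to 2.57, with no other positive value. DESeq2 lost 8 calls and gave no adjusted p for 4 others. Its size factors lost 4, the absence of a filter 4, and a fit of only the groups compared 6, with 8 that it could not test. Counts of genes called stayed within 1.5 times of the reported ones except in pancreas fibroblasts, where leaving out single libraries gave 2 to 5 genes. The same left-out libraries gave 14 to 16 genes for the mean mesothelial comparison, 15 to 19 for visceral against subcutaneous fat and 18 to 19 for bone. Where 1 of 2 libraries is left out, the lone one is assumed to vary like the other groups. Over 177 pairs with the same replicate number the median correlation of deviations was -0.00251, and 14.1% were over 0.1. In the 9 pairs that also shared a depot it ran from -0.249 to 0.231. With so few libraries per group, these values cannot decide whether libraries of the same number share an animal. With the replicate number as a block 4 calls were lost, and 14 genes were called in the mean mesothelial comparison. Leaving out the acinar-rich libraries, an alternative chosen after seeing the data, lost 15 calls. It left only 1 library in omentum fibroblasts and 1 in mesentery mesothelial cells. Loss of replication and removal of acinar RNA therefore cannot be told apart in it. Depth sets a limit at 3 counts over a group, which read 0.0263 to 0.0461 CPM.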
